A study of Mus musculus with 8 samples.

Results

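Cholesterol synthesis was followed through 7 named genes in sorted B cell progenitors: Srebf2, Hmgcs1, Mvd, Idi1, Fdps, Sqle and Lss. The genes were chosen by name and matched by their symbols to the Entrez Gene identifiers of the count table. All 7 were found among its 27179 identifiers, and all 7 passed the filter on low counts in every comparison. Srebf2 encodes a transcription factor, and the other members encode enzymes of the pathway.

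Animal cells build cholesterol from acetyl-CoA, first through mevalonate to isoprenoid units, then through squalene and lanosterol to the sterol itself. The pathway is governed by SREBP-2, the product of Srebf2, which is held in the endoplasmic reticulum while sterols are plentiful and is released by proteolysis to switch on the enzyme genes when they run short. The same isoprenoids feed protein prenylation, dolichol and ubiquinone, and dividing lymphocytes need sterol for new membrane.

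RNA was sequenced from bone marrow cells sorted as pre-proB, proB and preB, successive stages of early B lymphopoiesis, of Erg fl/fl control mice. The fourth group was pre-proB cells from the genotype Rag1Cre T/+;Erg Δ/Δ, where a Rag1-driven Cre deletes both floxed copies of Erg from the common lymphoid progenitor stage on. The controls carried floxed Erg without the Cre transgene, so effects of Cre and of Erg loss cannot be told apart. Each of the 4 groups held 2 biological replicates, and the methods describe populations sorted from 2 mice of each genotype aged 7 to 10 weeks. The control stages may therefore share animals, and no source used here says which mouse gave which library.

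Library totals lay between 15565381 and 18457632 counts. At that depth 3 counts equal between 0.163 and 0.193 CPM (counts scaled to the library total after TMM, a correction for composition), far under the lowest value of any member, and this limit covers counting error only. Erg, the deleted gene, stood at 69.1 and 25.3 CPM in control pre-proB, 144 and 127 CPM in proB, 19.6 and 28.7 CPM in preB and 2.50 and 2.58 CPM in Erg-deficient pre-proB cells, and so was low where the labels say it was deleted. The study's sort took B220+ cells negative for NK1.1 and CD11c and parted the stages by CD43 and CD24. Cd24a had 2081 and 2063 CPM in proB against 169 and 111 CPM in control pre-proB cells. The 2 control pre-proB libraries stood apart in B-lineage RNA, with the pre-B cell receptor gene Igll1 2.94 times higher in replicate 1 than in replicate 2.

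Motif letters were sought in the 250 bases before the transcription starts of the members. RefSeq promoters of GRCm38.p6 were at hand for 5 of the 7 genes, namely Srebf2, Hmgcs1, Mvd, Idi1 and Lss. The Lss promoter is set on a start later than the gene's first base, 76531565, so its printed stretch runs past that base. Stretches of these promoters are printed because they show where the letters of a sterol regulatory element (the site that SREBP proteins bind) and of CCAAT boxes (the site of NF-Y, a partner factor of SREBP) lie in genes that moved together. Capitals mark TCACNCCA and CCAAT, the latter also as ATTGG on the other strand, and each sequence is written 5′ to 3′ on the strand of its gene.
Srebf2, chr15:82147047-82147174, plus strand: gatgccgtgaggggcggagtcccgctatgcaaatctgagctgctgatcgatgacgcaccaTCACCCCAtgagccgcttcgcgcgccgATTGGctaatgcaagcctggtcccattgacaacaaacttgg
Hmgcs1, chr13:119690154-119690321, plus strand: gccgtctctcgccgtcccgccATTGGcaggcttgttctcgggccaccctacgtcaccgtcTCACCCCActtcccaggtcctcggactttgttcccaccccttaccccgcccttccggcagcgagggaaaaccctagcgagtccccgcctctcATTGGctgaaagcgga
Mvd, chr8:122443423-122443512, minus strand: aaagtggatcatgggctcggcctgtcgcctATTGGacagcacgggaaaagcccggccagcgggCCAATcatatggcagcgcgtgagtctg
Idi1, chr13:8885516-8885605, plus strand: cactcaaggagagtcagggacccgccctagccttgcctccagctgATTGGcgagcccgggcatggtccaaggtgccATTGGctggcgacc
Lss, chr10:76531515-76531604, plus strand: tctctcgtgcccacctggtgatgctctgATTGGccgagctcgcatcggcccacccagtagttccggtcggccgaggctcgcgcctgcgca

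CCAAT was found on either strand in 5 of the 5 member promoters, against 33.8% of the 32851 promoters in the table. GGGCGG, the letters of an Sp1 box, was also found in 5 of 5, against 32.7% of all. The full element TCACNCCAC was found in 1 of 5, in Hmgcs1 with its first base 137 bases before the start, against 1.05% of all. The shorter TCACNCCA, which lies within it and was added after the promoters had been read, was found in Hmgcs1 and in Srebf2, where it begins 162 bases before the start, against 3.67% of all. CCGGAAGT, the letters of an ETS site (Erg is an ETS factor), was found in 0 of 5, against 2.88% of all. The 32851 promoters belong to 27025 genes, and the shares were not matched to the members for expression or base composition. A match of letters is a description and does not show that a factor binds.

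From pre-proB to proB cells all 7 genes fell, and in preB cells all 7 stayed far below their pre-proB level. Over the first step the mean level of a member dropped to between 15.8% and 43.4% of its pre-proB mean, and in preB cells it lay between 9.60% and 26.7%. Loss of Erg in pre-proB cells was not accompanied by a called change in any of the 7.

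**Figure D1:**
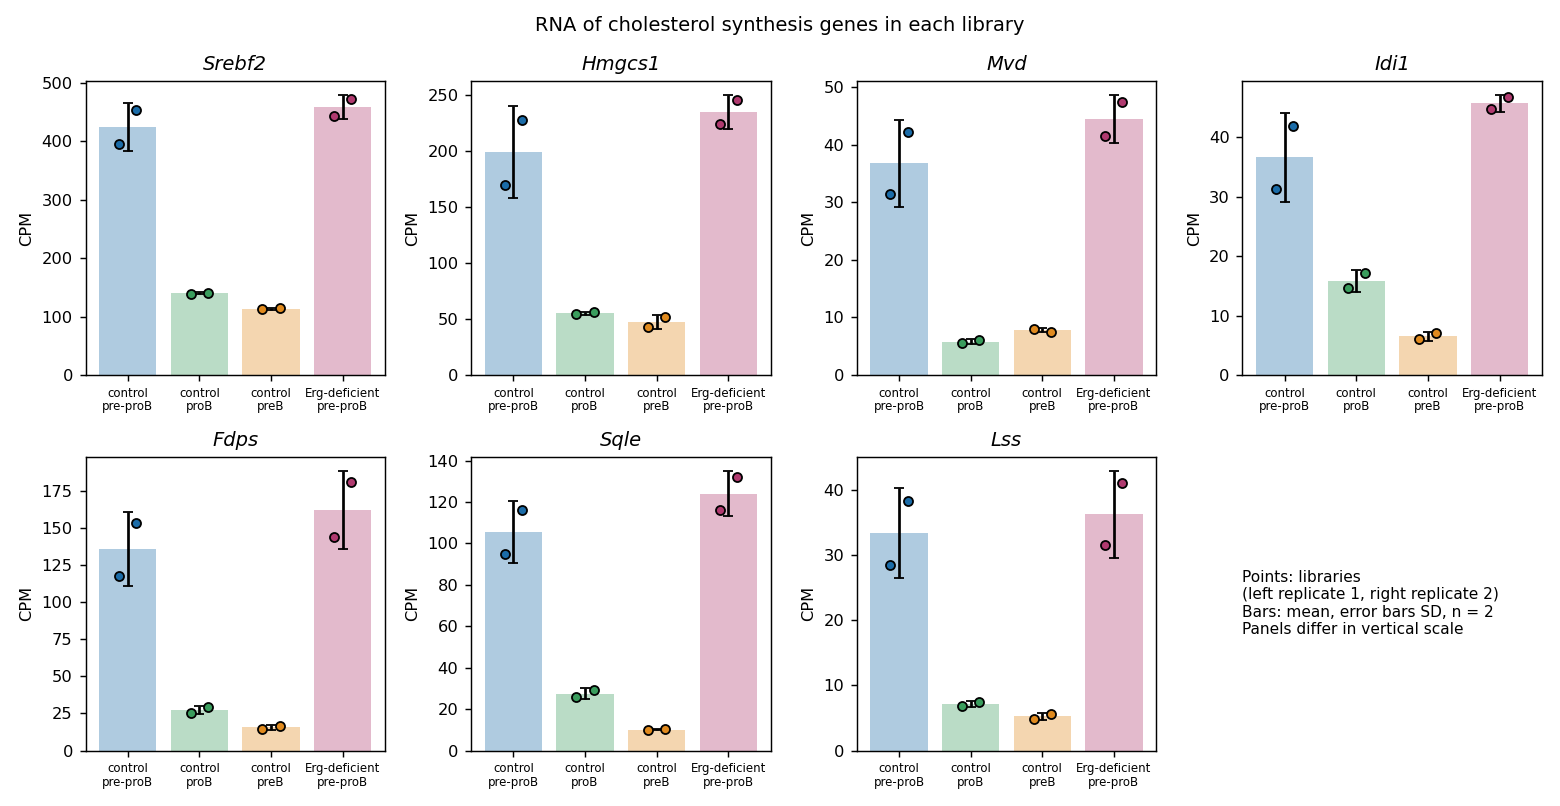
RNA of the 7 cholesterol synthesis genes in CPM on the vertical axis for each of the 4 groups, with bars for the mean, error bars for the SD (n = 2) and points for single libraries. In all 7 panels both pre-proB groups stand above proB and preB cells, and panels differ in vertical scale.

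Srebf2 (Entrez Gene 20788, chromosome 15 of GRCm38 from 82147269 to 82205379, plus strand), the regulator, had 396 and 454 CPM in the control pre-proB libraries, 139 and 141 CPM in proB and 112 and 115 CPM in preB. In Erg-deficient pre-proB cells it had 444 and 473 CPM. The stages did not overlap, and proB cells held 32.9% of the pre-proB mean. The first step, to proB cells, was -1.57 on the log2 scale, with a standard error (SE) of 0.0791 and an adjusted p of 3.52e-07 (quasi-likelihood test of edgeR, Benjamini-Hochberg adjusted). A further small fall to preB cells was called too, with a log2 fold change of -0.30 (SE 0.0793, edgeR adjusted p = 0.0118). That second call was lost without proB replicate 2 (adjusted p = 0.0549, edgeR) or without preB replicate 1 (adjusted p = 0.0645, edgeR).

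The mevalonate steps begin with Hmgcs1, which joins acetyl-CoA to acetoacetyl-CoA in the cytosol. Hmgcs1 (Entrez Gene 208715, chromosome 13 from 119690351 to 119708260, plus strand) had 170 and 228 CPM in control pre-proB, 54.3 and 56.3 CPM in proB and 43.1 and 51.8 CPM in preB cells. The pre-proB libraries differed from each other by more than the proB libraries did, yet the lower of them was above every proB and preB library. Its fold change was -1.82 on the log2 scale from pre-proB to proB (SE 0.141, edgeR adjusted p = 4.75e-06). From proB to preB it was -0.21 with a 95% interval from -0.55 to 0.12, which did not pass the test (adjusted p = 0.243, edgeR).

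Mvd (Entrez Gene 192156, chromosome 8 from 122433596 to 122443422, minus strand) encodes the decarboxylase that yields isopentenyl diphosphate. It had 31.4 and 42.1 CPM in control pre-proB, 5.52 and 6.07 CPM in proB and 7.96 and 7.49 CPM in preB cells. Mvd had the lowest estimate of the members over the first step, a log2 fold change of -2.63 (SE 0.165, edgeR adjusted p = 1.27e-06), which left proB cells with 15.8% of the pre-proB mean. It was also the member whose preB libraries both lay above its proB libraries, with a log2 fold change of 0.42, a 95% interval from 0.01 to 0.83 and an adjusted p of 0.0733 (edgeR), which did not pass the test.

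Idi1 (Entrez Gene 319554, chromosome 13 from 8885606 to 8892396, plus strand), the isomerase that interconverts the isoprenoid building blocks, had 31.4 and 41.9 CPM in control pre-proB, 14.6 and 17.2 CPM in proB and 5.99 and 7.04 CPM in preB cells. Both steps down were called. The first had a log2 fold change of -1.17 (SE 0.158, edgeR adjusted p = 0.000167) and the second of -1.28 (SE 0.181, edgeR adjusted p = 0.000443). The 95% interval of its first step, -1.53 to -0.81, lay above that of Mvd, -3.01 to -2.25, although the difference between the genes was not tested.

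Fdps (Entrez Gene 110196, chromosome 3 from 89093588 to 89101967, minus strand) encodes farnesyl diphosphate synthase, whose product stands where the sterol and prenyl branches part. It had 118 and 153 CPM in control pre-proB, 25.4 and 29.4 CPM in proB and 14.5 and 16.8 CPM in preB cells. Each stage lay below the one before it without overlap. The log2 fold changes were -2.27 to proB (SE 0.139, edgeR adjusted p = 1.09e-06) and -0.80 from proB to preB (SE 0.158, edgeR adjusted p = 0.00263).

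Among the enzymes of the sterol end, Sqle (Entrez Gene 20775, chromosome 15 from 59315092 to 59331193, plus strand), the squalene epoxidase and a rate-limiting step of the pathway, had 94.9 and 116 CPM in control pre-proB, 25.7 and 29.4 CPM in proB and 10.1 and 10.2 CPM in preB cells. Over both steps it had the lowest estimate of the members, a log2 fold change of -3.34 from pre-proB to preB (SE 0.127, edgeR adjusted p = 7.31e-08) that left 9.60% of the pre-proB mean. Its 95% interval, -3.63 to -3.05, overlapped that of Fdps, -3.41 to -2.73. The steps were -1.90 to proB (SE 0.112, edgeR adjusted p = 8.74e-07) and -1.44 from proB to preB (SE 0.134, edgeR adjusted p = 4.66e-05).

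Lss (Entrez Gene 16987, chromosome 10 from 76531565 to 76557139, plus strand), the lanosterol synthase that closes the sterol rings, had 28.5 and 38.2 CPM in control pre-proB, 6.83 and 7.51 CPM in proB and 4.82 and 5.63 CPM in preB cells. Its first step was a log2 fold change of -2.18 (SE 0.168, edgeR adjusted p = 4.56e-06). From proB to preB the value was -0.45 with a 95% interval from -0.88 to -0.01 and an adjusted p of 0.0730 (edgeR), which did not pass. It passed in 5 of 15 alternative settings. Among these were total counts in place of TMM scaling (-0.51, adjusted p = 0.0424, edgeR) and the replicate number as a block (-0.45, adjusted p = 0.0230, edgeR).

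Counted together, 7 of 7 members were called lower in proB than in pre-proB cells, where 36.8% of the 13650 genes tested were called lower, 36.2% higher and 73.0% in either direction. The median log2 fold change of the members was -1.90 and that of all genes 0.00. From proB to preB cells 4 of 7 were called lower, Srebf2, Idi1, Fdps and Sqle, where 29.9% of all genes were called lower, 29.0% higher and 58.9% in either direction. There the medians were -0.45 for the members and 0.00 for all genes. That count was 5, with Lss added, when the replicate number entered as a block. It lay between 3 and 7 when 1 library at a time was left out, and was 7, with Mvd higher and the others lower, without control pre-proB replicate 1. Between preB and pre-proB cells 7 of 7 were called lower, where 34.1% of all genes were called lower, 36.5% higher and 70.7% in either direction, with medians of -2.45 and 0.04. No member's libraries overlapped between stages. Those of all 7 members lay lower in proB than in pre-proB cells, as did those of 45.6% of all genes, and in preB than in pre-proB cells, as did those of 42.5%. Between proB and preB cells 6 members lay lower in preB, as did 41.4% of all genes, and Mvd lay higher, as did 40.2%. The 3 comparisons share libraries and are not independent of each other.

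**Figure D2:**
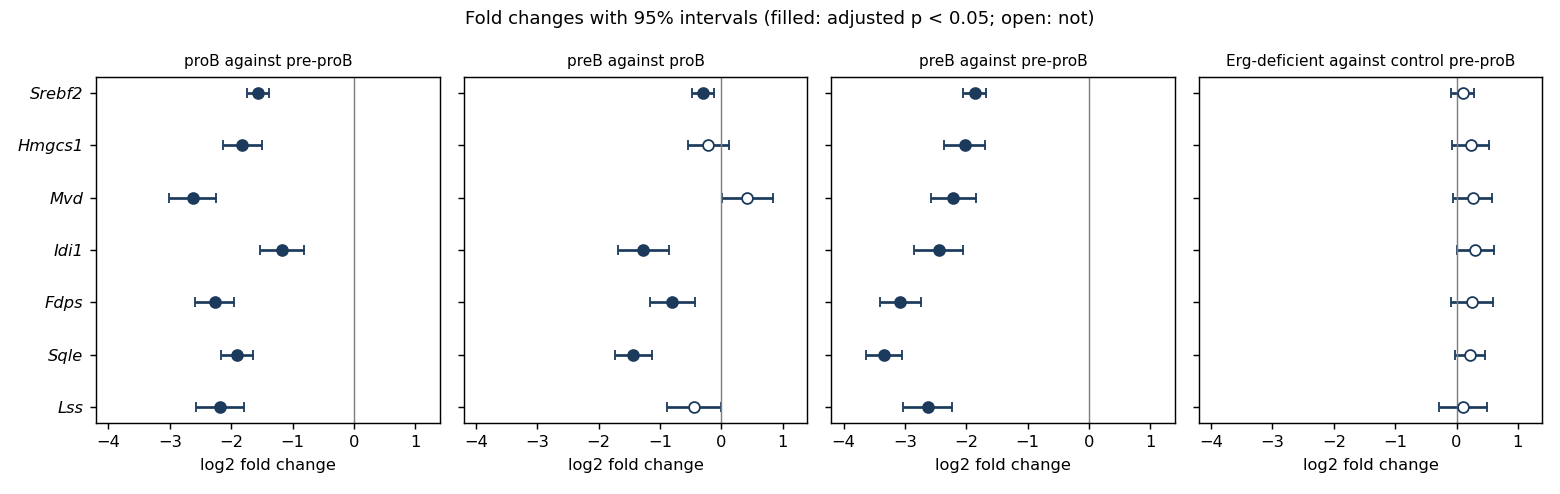
Log2 fold change of each of the 7 genes with its 95% interval in 4 comparisons, with filled points for an adjusted p under 0.05 in edgeR's test. All intervals for proB and preB against pre-proB lie below 0, those for preB against proB are split, and those for the Erg-deficient genotype lie near 0.

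Levels of different genes were set side by side per length, as FPKM (CPM divided by the length of the gene's exons in kilobases). In control pre-proB cells Fdps, at 93.3 ± 17.2 FPKM (SD, n = 2), and Srebf2, at 83.7 ± 8.04 FPKM (SD, n = 2), led and did not differ beyond their spread. Hmgcs1 followed at 57.2 ± 11.8 FPKM (SD, n = 2) and Sqle at 38.3 ± 5.43 FPKM (SD, n = 2). Mvd stood at 20.9 ± 4.32 FPKM (SD, n = 2), Idi1 at 12.1 ± 2.45 FPKM (SD, n = 2) and Lss lowest at 7.15 ± 1.48 FPKM (SD, n = 2).

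In preB cells the order of levels had changed. Srebf2 led at 22.4 ± 0.374 FPKM (SD, n = 2), ahead of Hmgcs1 at 13.6 ± 1.77 FPKM and Fdps at 10.8 ± 1.15 FPKM (SD, n = 2 each), whose libraries did not overlap. Mvd, at 4.40 ± 0.190 FPKM, stood above Sqle, at 3.67 ± 0.0361 FPKM (SD, n = 2 each), where in pre-proB cells Sqle had been the higher. Lss remained lowest in preB cells, at 1.12 ± 0.123 FPKM (SD, n = 2), below Idi1 at 2.15 ± 0.246 FPKM (SD, n = 2).

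In Erg-deficient pre-proB cells none of the 7 members was called different from control pre-proB cells, where 1.16% of the 13005 genes tested were called, 0.946% lower and 0.215% higher. All 7 estimates were above 0, from 0.10 for Srebf2 and 0.11 for Lss to 0.26 for Mvd and 0.31 for Idi1 on the log2 scale, and adjusted p-values lay between 0.384 and 0.838 (edgeR). Idi1 alone had an unadjusted p under 0.05, at 0.0432 in edgeR's test across all genes, and 12.5% of all genes tested had one. DESeq2 and limma-voom called 0 of 7 as well.

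The values themselves were close. Hmgcs1 had 225 and 246 CPM in the Erg-deficient libraries, Mvd 41.5 and 47.4 CPM and Idi1 44.7 and 46.7 CPM. Fdps had 144 and 181 CPM, Sqle 116 and 132 CPM and Lss 31.5 and 40.9 CPM. For Idi1 and Sqle both Erg-deficient libraries lay above both controls, which was so for 23.7% of all genes tested, and for the other 5 the genotypes overlapped. The 95% intervals reached at most 0.60 upward, for Idi1, and -0.28 downward, for Lss, so each interval excludes a fall of the size seen from pre-proB to proB cells.

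Control pre-proB replicate 1, the library richer in B-lineage RNA, was also the lower of the pair for every member. Replicate 2 held 1.15 times the level of replicate 1 for Srebf2 and up to 1.34 times for Mvd. The mean of the Erg-deficient libraries was 0.947 to 1.09 times control replicate 2 and 1.16 to 1.46 times control replicate 1. The part of B-lineage content in these values was not tested. Without control replicate 2, Idi1 was called higher in Erg-deficient cells, with a log2 fold change of 0.51 (SE 0.105, edgeR adjusted p = 0.0324), and no other member was called.

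Most other enzymes of the pathway moved the same way. Of 14 further sterol synthesis genes, 12 were called lower in proB than in pre-proB cells and 1 higher, with a median log2 fold change of -1.36. Of all genes 36.8% were called lower there, 36.2% higher and 73.0% in either direction. Msmo1, a sterol C4-methyl oxidase, had 95.2 and 119 CPM in control pre-proB and 15.5 and 16.2 CPM in proB cells, a log2 fold change of -2.72 (SE 0.124, edgeR adjusted p = 1.96e-07). Cyp51, the lanosterol demethylase, fell by 1.67 and then by 1.05 on the log2 scale (adjusted p = 2.06e-06 and 0.000198, edgeR).

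The gene of the list that rose was Lbr, which encodes the lamin B receptor, a nuclear envelope protein that also has sterol reductase activity, with a log2 fold change of 0.62 from 348 and 368 CPM to 548 and 527 CPM. The gene not called was Acat2, an acetyl-CoA thiolase, with 24.8 and 31.4 CPM in pre-proB and 26.7 and 22.6 CPM in proB cells. From proB to preB cells 6 of 14 were called lower and 1 higher, Tm7sf2, another sterol reductase, by 0.40. Of all genes 29.9% were called lower there, 29.0% higher and 58.9% in either direction, so 7 of 14 was no more than the common share. Those 7 calls became 3 without preB replicate 1 and 4 without proB replicate 1. In Erg-deficient pre-proB cells 0 of the 14 were called (edgeR), with estimates between 0.03 and 0.32.

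**Figure D3:**
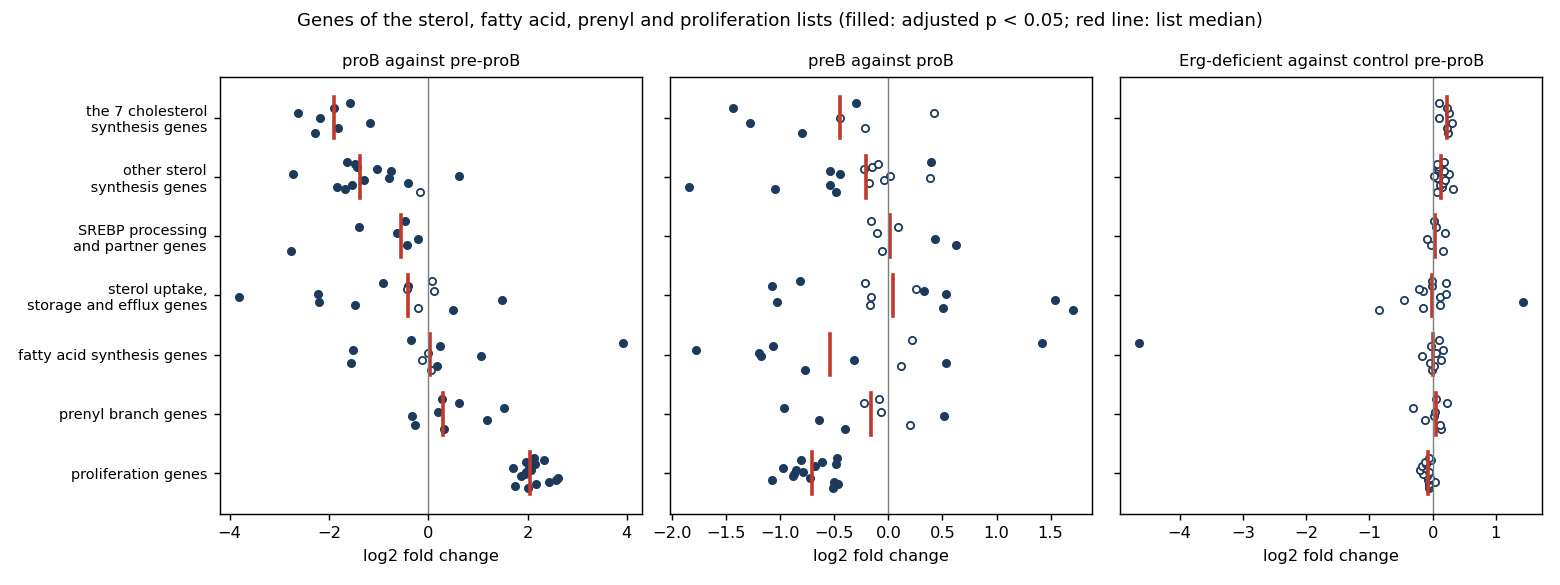
Log2 fold change of every gene tested in 7 lists, in 3 comparisons, with filled points for an adjusted p under 0.05 in edgeR's test and a red line at each list's median. Both sterol synthesis lists lie to the left in proB against pre-proB cells and near 0 between genotypes, and the proliferation list lies to the right and then to the left.

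Genes of SREBP processing and the paralogue Srebf1 were lower in proB cells too. All 6 genes of this list were called lower in proB than in pre-proB cells. Of all genes 36.8% were called lower there and 73.0% in either direction. Their log2 fold changes ran from -2.77 to -0.21, with a median of -0.55. Insig1, whose product retains SREBP in the endoplasmic reticulum and which is itself an SREBP target, had 162 and 175 CPM in control pre-proB, 24.9 and 23.2 CPM in proB and 22.8 and 23.1 CPM in preB cells, a first step of -2.77 (SE 0.0715, edgeR adjusted p = 1.06e-08). Scap, the sterol sensor that escorts SREBP, fell by 1.38 on the log2 scale (SE 0.0577, edgeR adjusted p = 1.21e-07). The paralogue Srebf1 fell by 0.47 on the log2 scale over the same step, against 1.57 for Srebf2. From proB to preB cells Insig2 rose by 0.63 and the protease gene Mbtps1 by 0.44, where 29.0% of all genes were called higher, and the others were not called. Mbtps1 had 184 and 181 CPM in control pre-proB, 155 and 152 CPM in proB and 209 and 204 CPM in preB cells. In Erg-deficient cells 0 of 6 were called (edgeR).

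Of 12 uptake, storage and efflux genes tested, 6 were called lower and 2 higher in proB than in pre-proB cells, where 73.0% of all genes were called in either direction. Npc1, which carries cholesterol out of lysosomes, had 445 and 491 CPM in control pre-proB against 30.1 and 34.9 CPM in proB cells, a log2 fold change of -3.81 (SE 0.0957, edgeR adjusted p = 9.72e-09), and its partner Npc2 fell by 2.22 on the log2 scale. Mylip, a ubiquitin ligase that degrades lipoprotein receptors, rose in both steps, from 39.7 and 27.5 CPM through 90.2 and 92.5 CPM to 266 and 262 CPM in preB cells. Abca1, the cholesterol efflux pump, rose from 26.8 and 30.1 CPM in proB to 90.1 and 94.7 CPM in preB cells, a log2 fold change of 1.71 (SE 0.167, edgeR adjusted p = 5.98e-05). In Erg-deficient cells 1 of 12 was called, where 1.16% of all genes were called. It was Lrp1, a large endocytic receptor, which rose from 17.8 and 18.2 CPM to 47.4 and 50.8 CPM (log2 fold change 1.43, SE 0.0768, edgeR adjusted p = 0.00296). Without control replicate 2 that count was 3.

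Fatty acid synthesis genes are driven mainly by the SREBP-1 proteins. Of 10 such genes, 3 were called lower and 4 higher from pre-proB to proB cells, with a median log2 fold change of 0.03, where 36.8% of all genes were called lower and 36.2% higher. Scd1, a desaturase, rose from 8.98 and 5.53 CPM to 107 and 107 CPM and then to 275 and 295 CPM in preB cells, while Fads2, another desaturase, fell by 1.52 and then by 1.77 on the log2 scale. Of 8 genes of the prenyl branch, which uses the product of Fdps, 2 were called lower and 6 higher in proB cells. Of all genes 36.2% were called higher there and 73.0% in either direction. The median log2 fold change of the 8 was 0.30, so most changes were small. Pdss1, which makes the ubiquinone tail, rose by 1.52 and Fntb, a farnesyltransferase subunit, by 1.18. That count of 8 calls was 5 without control pre-proB replicate 1 and 5 without proB replicate 2.

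Markers of another cell type moved with the members. All 6 of 6 plasmacytoid dendritic-like markers were called lower in proB than in pre-proB cells, where 36.8% of all genes were called lower. The median log2 fold change of the markers was -5.35, and none was at 0 in any library. Their summed level was 11501 and 12460 CPM in control pre-proB, 491 and 523 CPM in proB, 406 and 420 CPM in preB and 13165 and 13893 CPM in Erg-deficient pre-proB cells. Siglech, a defining receptor of these cells, stood at 3856 and 3825 CPM in control pre-proB, 46.5 and 56.5 CPM in proB, 11.2 and 11.5 CPM in preB and 3953 and 4507 CPM in Erg-deficient pre-proB cells. In bulk samples fewer cells of a type and less RNA per cell cannot be told apart, and the part of these markers in the fall of the 7 genes was not tested. Between genotypes 0 of the 6 markers were called (edgeR). All 6 NK-like markers were lower in proB cells as well, from a sum of 198 and 200 CPM in control pre-proB to 10.5 and 14.2 CPM. Most of that sum was 1 gene, Klrd1, with 174 and 174 CPM in control pre-proB and 2.40 and 3.70 CPM in proB cells.

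Proliferation genes rose where the members fell from pre-proB to proB cells, and fell from proB to preB cells. All 16 were called higher in proB than in pre-proB cells, where 36.2% of all genes were called higher. Their summed level was 2250 and 2467 CPM in control pre-proB, 9831 and 9633 CPM in proB and 6679 and 5832 CPM in preB cells. All 16 were then called lower in preB than in proB cells, with a median log2 fold change of -0.70, where 29.9% of all genes were called lower. In Erg-deficient pre-proB cells their sum was 2226 and 2224 CPM and 0 of 16 were called (edgeR). The pre-proB libraries of both genotypes had the lowest summed proliferation genes and the highest summed cholesterol synthesis genes. From proB to preB cells both sums fell, that of the members from 271 and 287 CPM to 199 and 214 CPM. The part of proliferation in the members' values was not tested.

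**Figure D4:**
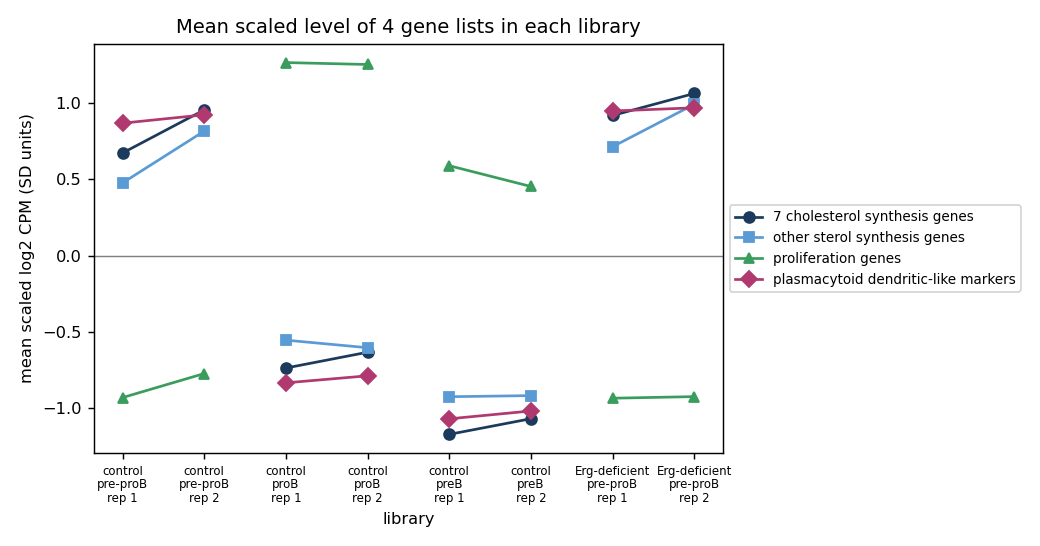
Mean scaled log2 CPM (SD units, each gene centred and scaled over the 8 libraries) of 4 gene lists in each library, with lines joining the 2 replicates of a group. Both sterol synthesis lists and the plasmacytoid dendritic-like markers are high in the pre-proB libraries of both genotypes, and proliferation genes are high in proB and preB.

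The 7 genes resembled each other over the 8 libraries. Pearson's r between a member and the mean profile of the other members, on scaled log2 CPM, was lowest for Mvd at 0.946 and Idi1 at 0.955 and highest for Fdps at 0.999. Of 9206 genes with a mean of at least 10 CPM, the 5 outside the members closest to their mean profile were Tagln2, Manf, Dhcr7, Ext2 and Nagpa, with r between 0.998 and 0.999. Dhcr7, a sterol reductase of the last steps of the pathway, had 76.7 and 90.1 CPM in control pre-proB, 28.0 and 28.2 CPM in proB, 19.1 and 19.3 CPM in preB and 85.8 and 95.8 CPM in Erg-deficient pre-proB cells. A profile of high pre-proB and low proB and preB levels was common. Against the mean profile of all 7 members, 1090 of the 9206 genes reached the r of the lowest member. That r included the member itself in the mean, so it is not the 0.946 given for Mvd. The points share libraries and group means, so these values are descriptions.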

How the data were processed

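RNA-seq counts per gene of 8 libraries were analysed, 2 biological replicates in each of 4 groups taken from the labels. The authors deposited whole-number counts without normalization for 27179 Entrez Gene identifiers. According to the study's methods and the submitters' processing notes, bases were called with CASAVA 1.8.2, adapters were trimmed with Trim Galore, reads were aligned to mm10 (GRCm38) with STAR and counted with featureCounts and Rsubread's Entrez annotation. STAR's version, the strand setting and the handling of multi-mapping reads: not given in the sources used here. Near-identical or overlapping genes may therefore share reads. RefSeq symbols of GRCm38.p6 matched 25275 identifiers, and the other 1904 hold 0.577% of the counts.

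edgeR 4.0.16 in R 4.3.3 was used with TMM, the legacy quasi-likelihood fit and F-test, in a fit of the 6 control libraries and a fit of the 4 pre-proB libraries. Genes needed 0.5 CPM in 2 libraries of the fit, p-values were adjusted by Benjamini-Hochberg over all genes kept, and calls were made at an adjusted p under 0.05. Each SE is the absolute log2 fold change over the root of F. The fits were tested on simulated data. CPM used TMM factors (0.952 to 1.05) over 8 libraries, FPKM used GENCODE vM21 exon lengths, which are not those of the counting, and Python 3.11.15 with matplotlib 3.10.9 drew the figures. Replicates of every group differed beyond sampling noise (chi-square per degree of freedom 3.82 to 8.29). An exact permutation test of 2 against 2 cannot go below p = 0.333. p-values set each change against the spread between these libraries, which the fits treated as independent.

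The members, lists and tests were chosen with earlier results of these data known. Genes that the choice of members counts beyond the 7 named were not analysed here, and some items of the lists are not reported here. Named genes were the 7 members, at most 4 called genes with the largest absolute change per list and comparison, any gene that a count of 5 or fewer refers to, Erg, and the 5 genes most like the members' mean profile. Siglech, Cd24a, Igll1 and Klrd1 were named with their values seen. The gene lists were sterol synthesis, SREBP processing with the paralogue Srebf1, uptake, storage and efflux, fatty acid synthesis, prenyl branch, proliferation and marker lists. Vldlr, of the uptake list, did not pass the filter. The methods name 2 mice of each genotype, so the control stages may share animals, but no source says that equal replicate numbers mark the same mouse. Deviations of same-numbered libraries from their group means correlated at -0.02 to 0.17. The stated analysis names no block, and none was used in the fits reported, which treat the libraries as independent. Alternatives were DESeq2 size factors or total counts, no filter or 1 CPM, DESeq2 1.42.0, limma-voom (limma 3.58.1), edgeR's version 4 method, all 8 libraries in one fit, a replicate block, and leaving out each library by itself.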

Additional observations from a re-analysis of the deposited data

How the results depend on the processing

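For proB against pre-proB and for preB against pre-proB cells, each of the 7 members kept its direction and an adjusted p under 0.05 in all 15 alternatives, with the highest adjusted p at 0.00260 (Idi1). For preB against proB cells the members' call changed in 10 of 105 values and no direction changed. The count of 4 members called ranged from 3 to 7 with 1 library left out, with 7 without control pre-proB replicate 1, where Hmgcs1 (adjusted p = 0.0487) and Mvd (adjusted p = 0.0220) passed in edgeR. The 7 other sterol synthesis genes called there ranged from 3 to 7. Between genotypes, members called ranged from 0 to 1 with 1 library left out, with 1 without control replicate 2, and Lss, at 0.11, ranged from -0.095 without Erg-deficient replicate 2 (-0.08 without control replicate 1) to 0.31 without control replicate 2. The cause was not tested, and the spread of a lone library was taken from the other groups. With the replicate number as a block, members called were 7, 5, 7 and 0 in the 4 comparisons, other sterol synthesis genes 13, 6, 13 and 0, and the addition was Lss. Whether equal numbers mark the same mouse is not stated, and a pairing of the control stages remains possible. The Scd1 call between genotypes was absent with limma-voom and with any 1 library left out. Another scaling moved the median of all genes by at most 0.06 on the log2 scale. Between genotypes the members' 95% intervals spanned -0.28 to 0.60 on the log2 scale, and smaller changes within that range could not be resolved.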

Other observations

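Where 1.16% of all genes were called between genotypes, 1 of the 10 fatty acid synthesis genes was, Scd1. This stearoyl-CoA desaturase gene had 8.98 and 5.53 CPM in control pre-proB and 0.125 and 0.452 CPM in Erg-deficient pre-proB cells (log2 fold change -4.64, SE 0.509, edgeR adjusted p = 0.0178). The call did not pass with limma-voom or when 1 Erg-deficient library was left out, and Scd1 did not pass the filter when 1 control library was left out. Control pre-proB replicate 1, richer in B-lineage RNA, had the higher Scd1 value, and the level was 107 CPM in both proB libraries. The other 9 fatty acid synthesis genes were not called between genotypes.

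Markers of other cell types were counted in the same way. NK-like markers summed to 198 and 200 CPM in control pre-proB and 243 and 357 CPM in Erg-deficient pre-proB cells. Klrd1 made up most of these sums, with 174 and 174 CPM in control and 164 and 220 CPM in Erg-deficient cells, so they say little about the other markers. In Erg-deficient cells 4 of 6 were called higher, where 0.215% of all genes were called higher. All 6 were called lower in proB than in pre-proB cells, where 36.8% of all genes were called lower. Myeloid-like markers summed to 150 and 360 CPM in the proB libraries and 195 and 149 CPM in control pre-proB. Of these 6 markers, 1 was called lower in proB than in pre-proB cells, Mpo, and 3 higher, Lyz2, S100a8 and S100a9. Of all genes 36.8% were called lower there and 36.2% higher. In the proB libraries S100a8 had 36.6 and 102 CPM and S100a9 had 51.7 and 142 CPM. Plasma cell-like markers summed to 556 and 648 CPM in control pre-proB, 309 and 309 CPM in proB and 139 and 147 CPM in preB cells. The sum hides opposite changes, since 2 were called lower and 2 higher in proB than in pre-proB cells. Xbp1 fell from 408 and 485 CPM to 64.3 and 72.6 CPM, while Jchain rose from 96.5 and 106 CPM to 210 and 200 CPM. T-like markers summed to between 28.0 and 81.1 CPM and erythroid-like markers to between 2.70 and 32.9 CPM over all libraries. Of the 5 T-like markers 4 were called lower in proB than in pre-proB cells and 1, Lck, higher. Of 11 stage and sort markers, 4 were called lower in Erg-deficient cells and none higher, where 0.946% of all genes were called lower. The part of these markers in the members' values was not tested.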
